A study of Mus musculus with 4 samples.

Results

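The genes described here encode 10 transcriptional regulators of the epidermis: p63 (gene Trp63), Klf4, Klf5, Grhl1, Grhl2, Grhl3, Gata3, Cebpa, Cebpb and Hopx. They were taken by name from a table of mouse hair follicle stem cells (HF-SCs), with the condition that a gene had reads, and all 10 did, among 17044 genes with a mean above 0. The study asked what the microRNA miR-205 does to quiescent HF-SCs, using mice in which a pTRE2-miR-205 transgene is switched on by doxycycline through rtTA made under the Krt14 promoter, which is active in the basal keratinocytes of skin and not in HF-SCs alone. There were 2 libraries from control mice and 2 from induced mice, labelled C57BL/6, while the transgene was first injected into FVB eggs and bred as several lines. Cells were collected on postnatal day 44, after 2 d of doxycycline food that began on day 42. The sample labels call the controls untreated, whereas the protocol gives the doxycycline food to control and induced mice alike. A Krt14-H2BGFP reporter was carried for sorting, and the cells were gated on back skin as live, high for H2BGFP, negative for Sca1 and high for α6 integrin and CD34. Control and induced mice were matched for sex and both carried this reporter, and the paper states that its controls were littermates. Which of the other transgenes the controls carried, and whether each library was 1 animal, is not given in the sources used here.

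p63 is the transcription factor on which stratified epithelia depend, and the ΔN form made from its internal promoter keeps basal keratinocytes in their lineage. It works beside other factors that set how a keratinocyte divides, adheres and differentiates: the zinc-finger proteins Klf4 and Klf5, the Grainyhead-like factors, Gata3, the leucine-zipper proteins C/EBPα and C/EBPβ, and Hopx, a small homeodomain protein that does not itself bind DNA. ΔNp63 is also a known regulator of the miR-205 gene. A microRNA lowers its targets mostly through matches in their 3′UTRs to its seed, which is bases 2 to 8 of the mature strand.

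The induced microRNA and the matches to its seed among these 10 genes are printed first, since this is the sequence that the transgene encodes. The mature strand, from RefSeq on GRCm38.p6, lies on chromosome 1 at 193507503 to 193507524 on the minus strand, and its seed is in capitals. The lines under it are 29-base windows of the sense strand of the transcript, in which the capitals are the 7 bases that pair with the seed.
mmu-miR-205-5p: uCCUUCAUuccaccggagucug
Gata3, first match: gtaagaaaggcATGAAGGacgccaagagt
Gata3, second match: cagcctaaactATGAAGGtagcagcgtac
Cebpa: ccgtgagaaaaATGAAGGgtgcaggccca

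The windows come from the GENCODE vM1 transcripts on NCBIM37, and all 3 were identical to the genome at the stated place. In Gata3 the matches are at chr2:9779623-9779629 and chr2:9778885-9778891 on the minus strand, both in exon 6 of 6, at bases 368 and 1106 of a 3′UTR of 1292 bases. The first of them also has an A opposite base 1 of the microRNA. In Cebpa, a gene of a single exon, the match is at chr7:35905929-35905935 on the plus strand, at base 412 of a 3′UTR of 1428 bases. Thus 2 of 10 genes held the motif ATGAAGG in the longest annotated 3′UTR, on the sense strand, beside 1799 of 15307 genes with an annotated 3′UTR and a mean above 0, or 11.8%. With the A as well, it was 1 of 10 beside 4.26% of genes, and with the shorter match to bases 2 to 7, TGAAGG, which lies inside the longer one, it was 5 of 10 beside 36.6%, the other three being Trp63, Grhl1 and Grhl2. No match was found in Klf4 (984 bases), Klf5, Grhl3 (771 bases), Cebpb (506 bases) or Hopx (1296 bases), and the Klf5 3′UTR in this annotation is only 76 bases long. A match is a description of the letters in these windows and not a measured target site.

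The level of a gene is given here as the authors' mean normalized count, which averages all 4 libraries after each has been brought to a common depth. It therefore covers controls and induced mice together, and no difference between these groups is reported. The printed digits of the mean fix the whole read counts behind it for 7 of the 10 genes, as described under the processing, so that each of these also has 4 library values. For Grhl1, Grhl3, Gata3 and Cebpb they were still the only solution at double the rounding tolerance. Grhl2 and Hopx then had 2 solutions and Cebpa had 3, and the library values of Grhl2, Cebpa and Hopx are less firm. The libraries are named A, B, C and D from the shallowest to the deepest, with relative depths of 0.716, 0.966, 1.18 and 1.24, and they are not tied to a group or an animal, so that group, animal and library cannot be told apart in a difference between them. The reads in genes that could be solved ranged from 2713429 in library A to 4787077 in library D, and these genes leave out the most abundant ones.

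The cells carried the markers of the gate. All 10 HF-SC markers were among the top 10% of genes, which begins at a mean of 1404, including Krt5 at 146090, Krt15 at 119883 and Cd34 at 14575. Ly6a, which encodes the Sca1 used for exclusion, had a mean of 136.0, at percentile 52.1 of genes with a mean above 0. Per kilobase of its longest annotated transcript it had 166, at percentile 74.6 of genes of known length. Marker genes of suprabasal keratinocytes also had reads, with 9 of 10 markers measured at means from 115.8 to 16170. Those of fibroblasts (6 markers, 39.5 to 5186) and myeloid cells (8 markers, 35.6 to 2744) had reads too. The same held for sebaceous cells (8 markers, 22.0 to 3085) and melanocytes (6 markers, 28.6 to 2024). The highest sebaceous and melanocyte values were those of Scd1 and Mitf, and the medians of these lists were 95.6 and 218.8. Endothelial markers had means from 5.63 to 51.3, and the T-cell markers were low apart from Thy1 at 1043. In such bulk RNA, fewer cells of a type and less RNA per cell cannot be told apart. Whether the HF-SCs themselves transcribed some of these markers was not tested.

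Across the 10 genes the mean normalized count ran from 205.0 for Grhl3 to 51799 for Klf4, with a median of 1189, beside a median of 116.9 over all genes with a mean above 0. Klf4 ranked 21st of 17044 genes and Trp63 ranked 310th. Between them and Grhl3, which ranked 6976th, stood Grhl2 (1545), Klf5 (1399.9), Cebpa (1239), Hopx (1139.6), Gata3 (926), Grhl1 (806) and Cebpb (497). Klf4, Trp63 and Grhl2 were in the top 10% of genes, and the median percentile of the 10 genes was 88.0.

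Because long transcripts collect more reads, genes are compared with each other per kilobase of the longest annotated transcript. On that scale the order was Klf4 (17039), Trp63 (1163), Klf5 (813), Hopx (617), Cebpa (470.4), Cebpb (331), Grhl2 (312), Gata3 (288), Grhl1 (233) and Grhl3 (73.5), with a median of 400.5 beside 48.0 for all genes of known length. Klf5, Hopx and Cebpb moved up relative to the raw means, and Grhl2, with a transcript of 4947 bases, moved down. Klf4 was highest and Grhl3 lowest under each of the 4 length measures tried, but the order between them depended on the length. With the union of annotated exons Trp63 (743) fell below Klf5 (813). With the shortest or the median transcript Hopx stood above Klf5, Grhl2 above Cebpb and Gata3 above Grhl2. Some moves were larger. With the shortest transcript Gata3 (3811) also stood above Trp63 (3608), and Grhl2 (2444) above Hopx (1026). With the median transcript Gata3 (1374) also stood above Hopx (936). For the 7 genes with library values, the order of neighbours was firm only in part. Hopx was above Cebpa, Cebpa above Cebpb and Grhl2 above Gata3 in 4 of 4 libraries, although the ranges of each pair overlapped across libraries. Each of these pairs includes Hopx, Cebpa or Grhl2, whose library values are less firm. Cebpb was above Grhl2, and Gata3 above Grhl1, in 3 of 4 libraries. Grhl1 was above Grhl3 in all 4 libraries without overlap, from 178 to 282 per kilobase against 53.2 to 122.

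**Figure D1:**
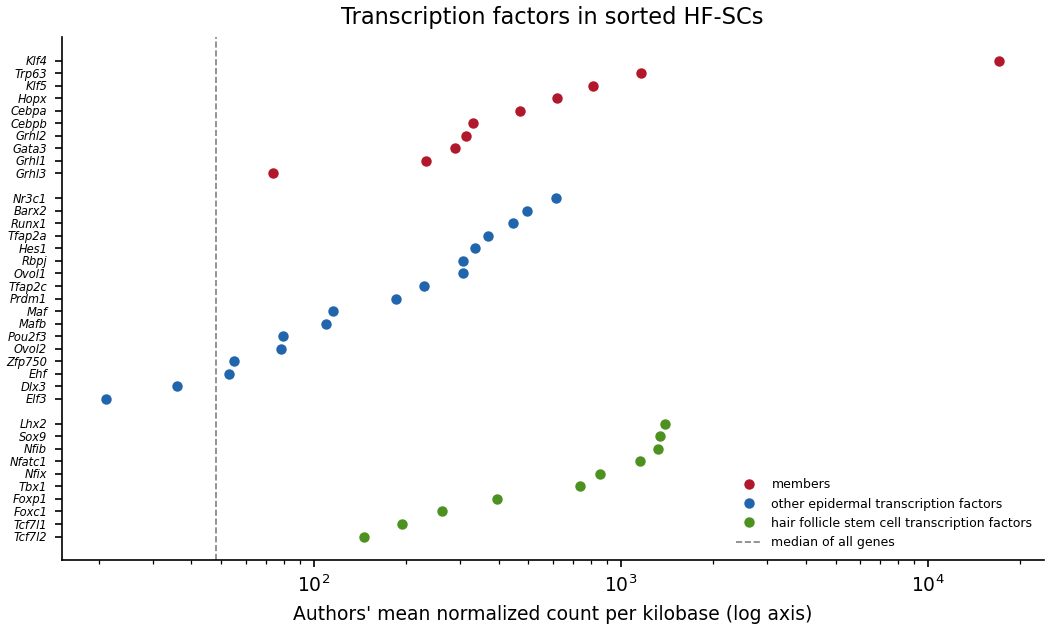
Authors' mean normalized count per kilobase of the longest annotated transcript, on a log axis, for the 10 genes (red), 17 other epidermal transcription factors (blue) and 10 transcription factors of HF-SCs (green); each point is 1 gene over all 4 libraries. Klf4 stands far to the right at 17039, Grhl3 at 73.5 is the lowest of the red points, and the dashed line is the median of all genes, 48.0.

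Other factors of the same tissue give the scale. Among 17 other epidermal transcription factors, all of them with reads, the level per kilobase ran from 21.1 to 617 with a median of 185. The highest mean was that of Nr3c1, the glucocorticoid receptor, at 3972, followed by Runx1 at 3170.0 and Rbpj at 1702, whereas Elf3 (42.3) and Dlx3 (94.5) were lowest. Among 10 transcription factors of HF-SCs the median per kilobase was 794, from 145 for Tcf7l2 to 1393 for Lhx2. Nfib, Nfatc1 and Sox9, which keep HF-SCs quiescent or in their lineage, had the highest means of that list, at 12003, 5639 and 5555. Trp63 lay within their range, at 0.865 times Sox9 per kilobase, and Klf4 lay above every gene of both lists.

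Trp63 (ENSMUSG00000022510.8; chr16:25683849-25892188, plus strand, NCBIM37) had a mean normalized count of 6238, or 1163 per kilobase of its longest transcript of 5366 bases and 743 per kilobase of the union of its exons. The counts are per gene, so the ΔN and TA forms are not told apart. By staining, the paper found ΔNp63 weaker and sparser in HF-SCs of telogen, the resting phase, than of anagen. That is a measure of protein, while the counts here are of RNA. In the p53 family Trp63 held 72.7% of the summed level per kilobase, Trp53 21.3% and Trp73 5.98%. Per kilobase, Trp63 was 3.41 times Trp53, the tumour suppressor, and 12.2 times Trp73. Its 4 library values could not be given, since more than 1 set of whole reads matched the printed mean. Those of its relatives could. Trp53 had normalized counts of 1160.1, 1159, 1155 and 987 in libraries A to D, and Trp73 had 535, 498, 539.5 and 357. Both were lowest in library D.

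A list of 17 genes known as p63 targets in keratinocytes had reads for every gene, with means from 52.0 to 146090 and a median of 7243. Of these 17, 12 were in the top 10% of genes. The highest were Krt5, Col17a1 (111705) and Krt14 (90971), which encode the basal keratins and a hemidesmosome collagen. The lowest were Satb1 (52.0), a chromatin organiser, and Zfp750 (178), a factor of terminal differentiation. The list mixes structural genes with regulators, and its levels do not measure p63 activity.

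The row for the miR-205 precursor gene itself, Mir205, held few reads. Libraries of this kind do not capture mature microRNAs, and the part of this in the low count was not tested. The mean of Mir205 was 8.18, from 8, 1, 8 and 17 reads in libraries A to D. These are 11.2, 1.03, 6.79 and 13.7 normalized counts, with library B lowest.

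Klf4 (ENSMUSG00000003032.7; chr4:55540013-55545347, minus strand), a factor needed for the skin barrier, was the most abundant of the 10 genes. Its mean was 51799, and per kilobase it was 14.7 times Trp63. Klf4 held 62.8% of the summed level per kilobase of the 17 KLF genes, of which 16 had reads and Klf17 was at 0. Klf6 followed with 18.4% and a mean of 21048, so that Klf4 was 3.41 times Klf6 per kilobase. The genes beside Klf4 in the order of means were looked up after its rank had been seen. Those just above it were Krt6a (54908), Eef2 (53085) and Hspa8 (51820), and those just below were Atf3 (51215), Fos (49376) and Sfn (47955). Fos and Atf3 belong to the immediate early and stress genes, which respond within minutes of a stimulus. A set of 8 such genes, also chosen after seeing Klf4, ranked from 11th to 293rd, with Fosb at 89691, Nr4a1 at 39769, Jun at 36481, Egr1 at 35524, Junb at 16010 and Ier2 at 6542. The skin was digested with collagenase and then trypsin before the sort, and the part of that handling in the level of Klf4 was not tested.

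Klf5 (ENSMUSG00000005148.7; chr14:99697910-99712624, plus strand), a factor of dividing basal keratinocytes, had a mean of 1399.9 and held 3.00% of the KLF family per kilobase. Per kilobase Klf4 was 20.9 times Klf5, and Trp63 was 1.43 times Klf5, a ratio that turned to 0.914 with the union of annotated exons. The Klf5 transcript in this annotation is 1721 bases long, with the short 3′UTR given above, which raises its value per kilobase if the true transcript is longer. Exactly 2 sets of whole reads matched its mean, and so no library value is given.

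**Figure D2:**
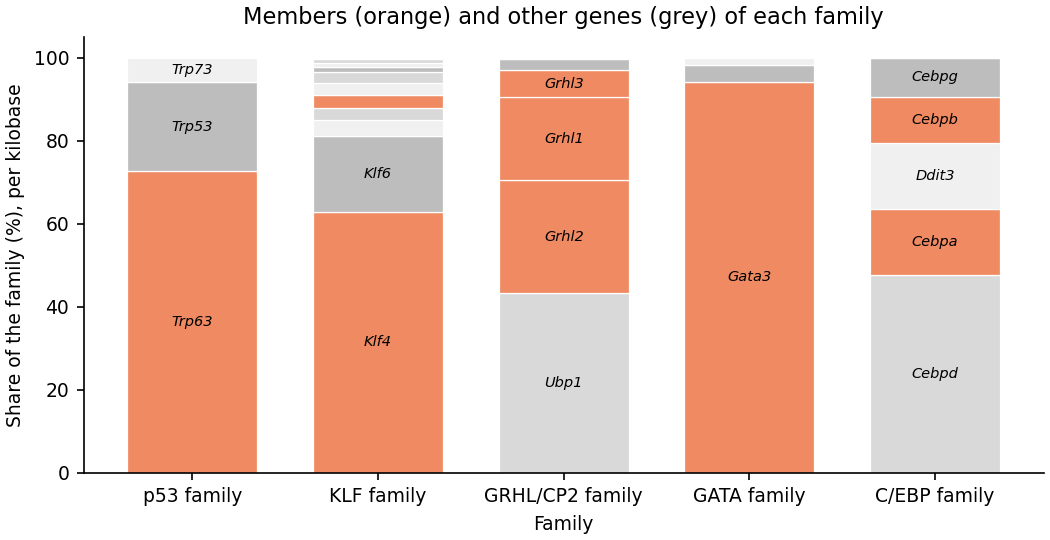
Share of each gene in the summed mean normalized count per kilobase of its family, in percent; orange segments are the genes described here, except Hopx, and grey segments are their relatives. Trp63, Klf4 and Gata3 hold 72.7%, 62.8% and 94.1% of their families, whereas Ubp1 and Cebpd are the largest segments of the GRHL/CP2 and C/EBP families.

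The 3 Grainyhead-like genes, whose proteins switch on genes of epithelial junctions and of the barrier, were all transcribed, at levels that differed among themselves. Together with their relatives Ubp1, Tfcp2 and Tfcp2l1 they form 1 family, in which Ubp1, a broadly used factor with a mean of 1928, held 43.4% of the level per kilobase. Grhl2 held 27.0%, Grhl1 20.1% and Grhl3 6.37%.

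Grhl2 (ENSMUSG00000022286.9; chr15:37162791-37293324, plus strand), known for its control of adherens and tight junction genes, had 1218, 1351, 1753 and 1971 reads in libraries A to D. At common depth these are 1700.3, 1398, 1487 and 1594 normalized counts. The highest library was A, and it was 1.22 times the lowest. The median ratio of 1551 solved genes with a mean within 2-fold was also 1.22.

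Grhl1 (ENSMUSG00000020656.9; chr12:25257152-25302256, plus strand), which acts on desmosomal cadherins and hair anchorage, had 442, 862, 868 and 1209 reads. Its normalized counts were 617, 892, 736 and 978. Library A was lowest and library D highest, 1.58 times apart, and this spread was larger than that of 92.4% of 3406 genes of like mean. Grhl2 was above Grhl1 in all 4 libraries, by 1.93, 1.10, 1.41 and 1.14 times per kilobase, and over the mean it was 1.34 times Grhl1.

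Grhl3 (ENSMUSG00000037188.7; chr4:135097803-135129545, minus strand), a factor of the upper layers that drives barrier and cornification genes, was the lowest of the 10. It had 111, 329, 175 and 218 reads, or 155, 340.5, 148 and 176 normalized counts. Library B was 1.93 times the next library, while the other three lay between 148 and 176. The highest value was 2.29 times the lowest, a spread above that of 97.3% of 3878 genes of like mean. The ratio of Grhl2 to Grhl3 per kilobase was 2.32 in library B and from 5.10 to 6.19 in the others.

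**Figure D3:**
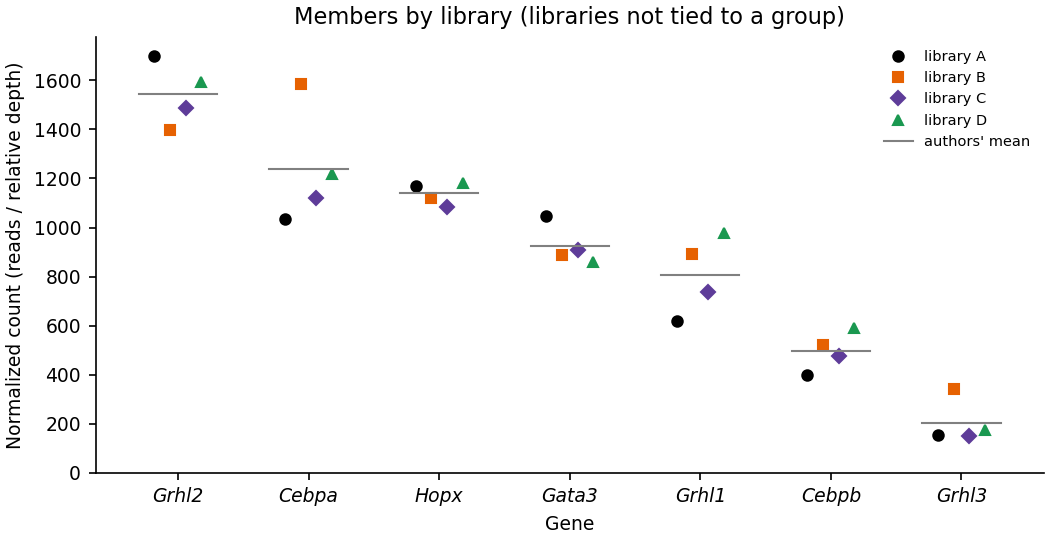
Normalized counts of the 7 genes whose reads could be solved, in libraries A to D (points) with the authors' mean (grey line); the libraries are not tied to a group. Grhl3 and Cebpa are highest in library B, at 340.5 and 1584, Grhl1 and Cebpb are lowest in library A, and the 4 values of Hopx lie from 1082 to 1183.

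Some genes of differentiated keratinocytes were also highest in library B. The suprabasal markers with the highest means, Dmkn (16170), Sbsn (10749) and Krt10 (7246), have no library values. The suprabasal genes whose reads could be solved, 4 of 10 listed, summed to 2319, 5261, 2855 and 2563 normalized counts in libraries A to D, and all 4 were highest in B. Lor, a protein of the cornified envelope, had 187, 1183, 623 and 422, and Krt1, the keratin of the spinous layer, had 1629, 3214, 1725 and 1564. Krt1, with a mean of 2033, was the largest part of each sum. Double the rounding tolerance was tried only for the genes described here, so the library values of Krt1 and other marker genes were not checked in that way. Zfp750 had 96.3, 318, 173 and 126 and was also highest in B. The melanocyte genes (5 of 6 listed) summed to 373, 2170.1, 774 and 906, again highest in B for 5 of 5. Ly6a had 60.03, 179, 159 and 146, with library A lowest. Whether suprabasal cells or melanocytes had a part in the Grhl3 value of library B was not tested. Without library B the mean of Grhl3 is 159.9 in place of 205.0.

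**Figure D4:**
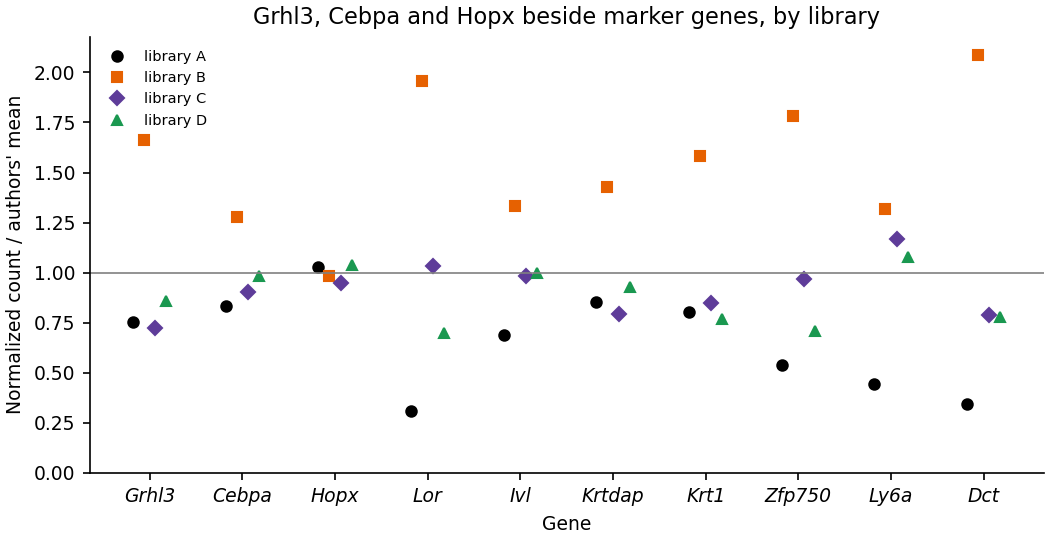
Normalized counts in libraries A to D divided by the authors' mean of the same gene, so that 1 is the mean, for Grhl3, Cebpa and Hopx beside suprabasal genes (Lor, Ivl, Krtdap, Krt1), Zfp750, Ly6a and the melanocyte gene Dct. Library B is the highest point for every gene shown except Hopx, whose 4 points lie close to 1. The genes shown were chosen after their values were seen. Of those not shown, Grhl2, Gata3, Dlx3 and Maf were highest in library A, and Grhl1, Cebpb and Prdm1 in library D.

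Gata3 (ENSMUSG00000015619.9; chr2:9778705-9811661, minus strand), a zinc-finger factor of the inner root sheath lineage and of the epidermis, had 751, 859, 1069 and 1064 reads. At common depth these are 1048, 889, 907 and 860.4 normalized counts, with library A highest and the other three close together. The highest was 1.22 times the lowest, beside a median of 1.23 for 2980 genes of like mean. Gata3 held 94.1% of the GATA family per kilobase. Gata6 followed with 4.15% and a mean of 40.6, and Gata4 and Gata5 were at 0. Gata3 is also a defining factor of T cells. Cd3e, Cd3g and Cd3d, parts of the T-cell receptor complex, had means of 9.52, 4.85 and 0.900, and the part of T cells in the Gata3 level was not tested. The gene has 7 annotated transcripts, the shortest of 243 bases, so its value per kilobase depends on the length used.

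Cebpa (ENSMUSG00000034957.9; chr7:35904312-35906945, plus strand) and Cebpb (ENSMUSG00000056501.3; chr2:167514415-167515918, plus strand) encode C/EBPα and C/EBPβ, which take part in the cell-cycle exit and early differentiation of keratinocytes. Their relative Cebpd was the largest of the family, with 47.5% of the level per kilobase and a mean of 1642. Cebpa held 16.1%, Ddit3 15.7%, Cebpb 11.3% and Cebpg 9.37%, and Cebpe, a factor of granulocytes, held 0.0201%.

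Cebpa had 740, 1531, 1322 and 1505 reads in libraries A to D, or 1033, 1584, 1121 and 1217 normalized counts. Library B was highest, 1.302 times the next, and the spread of 1.53 times was above that of 90.3% of 2151 genes of like mean. Cebpa thus shared with Grhl3 its highest library, in which it was 1.41 times the mean of the other three, against 2.13 times for Grhl3. The library values of Cebpa are less firm than those of Grhl3, as given above.

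Cebpb had 286, 504, 562 and 732 reads, or 399, 522, 477 and 592 normalized counts. Like Grhl1 it was lowest in library A and highest in library D, with a spread of 1.48 times that was above that of 87.1% of 3952 genes of like mean. Per kilobase Cebpa was above Cebpb in all 4 libraries, from 1.17 times in library D to 1.73 times in library B. Myeloid cells use C/EBP factors too. The myeloid genes whose reads could be solved, 7 of 8 listed, summed to 2020.0, 3353, 5219 and 2690.4 and were highest in library C for 6 of 7. Their part in the C/EBP levels was not tested.

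Hopx (ENSMUSG00000059325.7; chr5:77515468-77544186, minus strand), a marker of stem cells of the hair follicle bulge, varied least of the 7 genes. It had 839, 1084, 1276 and 1463 reads, or 1171, 1122, 1082 and 1183 normalized counts. The libraries were within 1.09 times of each other, a smaller spread than that of all but 8.95% of 2381 genes of like mean. Its mean of 1139.6 was 617 per kilobase, the fourth of the 10 genes.

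The 7 genes did not share 1 order of libraries. Library D was highest for 3 of them (Grhl1, Cebpb and Hopx), libraries A (Grhl2 and Gata3) and B (Grhl3 and Cebpa) for 2 each, and library C for 0. Library A was lowest for 3, Grhl1, Cebpa and Cebpb. Of the 15 other epidermal transcription factors with library values, 7 were highest in library B, 4 in A, 3 in D and 1 in C. Over 8752 solved genes with a mean over 50, 25.3% were highest in B, 21.9% in A, 26.1% in C and 26.6% in D. Besides Zfp750, Ehf (193, 338, 200.2 and 217) and Pou2f3 (124, 308, 248 and 150.4) had their highest value in B. Other factors of keratinocyte differentiation did not, as Dlx3 had 117, 89.0, 61.1 and 111, Prdm1 had 1143, 862, 703 and 1207, and Maf had 831, 545, 811 and 745.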

How the data were processed

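Total RNA of sorted HF-SCs was sequenced from directional libraries as 150-nt pairs. Per the submitters' processing notes, reads were aligned with HISAT2 2.1.0 to mm10, sorted with SAMtools 1.3.1 and counted per gene with HTSeq; the methods write the build with 2 names. Neither the annotation nor the strand setting of the counting is given in the sources used here. The authors deposited a single DESeq2 table, in which the unit used here is a signal, the mean of 4 depth-normalized counts. Its other columns hold the authors' own comparison of induced with control (fold changes, standard errors, Wald statistics, p and adjusted p) and were not used, so no comparison of groups was made. Per-sample columns number 0.

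Each mean averages 4 whole counts, each divided by its library's size factor, and was printed to 15 digits. The 4 units were read from the lowest means and refined, and every mean up to 1600 (2100 for listed genes) was then searched for whole counts that give all printed digits, each library at or above 1/4 of the mean (any value for means up to 50). Of 15547 genes up to 1600, 15173 (97.6%) had 1 solution, 80 had several and 294 had none. Size factors recomputed by the median of ratios over 12495 solved genes differed from those recovered by 0.863% to 1.38%. The search was tested on simulated data with means up to 1600. The range above that, up to 2100, which was used for listed genes such as Krt1, was not simulated. Klf4 was above the limit, Klf5 had 2 solutions, and Trp63 had 2 already when libraries were held within 1.25-fold. Libraries were not tied to samples, and no test was run on them. The genes of like mean, among which spreads were ranked, were solved genes only. A gene with a mean over 50 and a library below 1/4 of it could not enter that ranking. Solved reads measure counting depth, and their precision covers counting error alone.

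Lengths and 3′UTRs are from GENCODE vM1 (NCBIM37), matched by symbol for 16228 of 17044 genes (95.2%). The table holds no coordinates and none were converted. Named genes were all 10 members, and of each other list the highest 3 and lowest 2 by mean, with other family members where a share is given. Genes beyond that rule (the neighbours of Klf4, the immediate early genes and the genes given by library, such as Lor, Krt1, Dct, Ehf, Pou2f3, Prdm1 and Maf) were chosen after their values were seen. One listed gene is not reported here and was left out of its lists. The members and lists were chosen with earlier results of these data known. Alternatives were other length measures, filters on the mean (over 50 and over 200), search ranges, site definitions and leaving out each library. Python 3.11.15, numpy 2.4.6 and matplotlib 3.10.9 were used.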

Additional observations from a re-analysis of the deposited data

How the results depend on the processing

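The median percentile of the 10 genes was 80.2 among genes with a mean over 50 and 71.0 among those over 200, in place of 88.0. Their median level per kilobase was 919.6 with the shortest and 794 with the median annotated transcript, in place of 400.5 with the longest, and 400.5 again with the union of exons. By another length 5 genes moved over 1.5 times: with the shortest Klf4 went to 99232, Trp63 to 3608, Gata3 to 3811, Grhl2 to 2444 and Hopx to 1026, and with the union Trp63 fell to 743. Of 9 neighbouring pairs in the order, 3 turned with the shortest, 3 with the median transcript and 1 (Trp63 and Klf5) with the union. These counts cover only genes that are neighbours by the longest transcript. They leave out moves past other genes, such as Gata3 above Trp63 with the shortest. Without length, the median share of a family was 24.3% in place of 20.1%. At double the tolerance, 4 of the 10 genes kept a single solution in place of 7, and at an 8-fold search range all 7 kept the same reads. The count of genes with a seed match was 1 with the 8-base and 5 with the 6-base definition in place of 2. With the shortest 3′UTR it was 2 of 10, beside 6.49% of all genes with an annotated 3′UTR. With each library left out, the mean of Grhl3 ranged from 159.9 to 224. No paired analysis was possible because the values of the libraries are not tied to samples. Depth limits the rows with few reads, such as Mir205 at 1 to 17 reads a library.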

Other observations

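Summed markers of cell types other than HF-SCs and T cells differed between the libraries by 1.82 times (fibroblasts) to 5.82 times (melanocytes). The sebaceous genes, 7 of 8 listed, summed to 1074, 2231, 1960.4 and 1675 normalized counts in libraries A to D, with A lowest. The fibroblast genes, 3 of 6 listed, summed to 593, 1078, 767 and 1038, and the endothelial genes, 5 of 5, to 76.8, 173, 140.0 and 174, so that B and D were above A and C for both. Of the T-cell genes, Thy1, which other cells also make, had 771, 1308, 1219.9 and 873, and the other 4 with library values summed to 46.1, 38.3, 39.0 and 41.2, within 1.20 times of each other. Lyz2, a lysozyme of macrophages, had 272, 523, 769 and 234, and Dct, an enzyme of melanin synthesis, had 170.3, 1041, 394 and 388. The HF-SC transcription factors with library values, 3 of 10, summed to 2527, 1984, 2108 and 2407, with A and D above B and C. The other epidermal transcription factors, 15 of 17, summed to 9050.1, 9171, 8230.2 and 8826, within 1.11 times of each other. The suprabasal, sebaceous, myeloid, fibroblast, melanocyte and endothelial lists had their lowest sum in library A, the T-cell genes without Thy1 had their highest there, and no single split of the 4 libraries held for all of them.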
